A study of Mus musculus with 14 samples.

Results

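The mouse miRNAs named miR-297, miR-466, miR-467 and miR-669 were examined in small RNA libraries of dorsal root ganglia, where sensory neurons have their cell bodies. A row of the deposited tables was a member when its name, without the species prefix, began with one of these 4 numbers followed by a letter or a hyphen, whatever its level. The rule found 74 of the 1123 miRNA rows: 6 miR-297, 30 miR-466, 13 miR-467 and 25 miR-669 rows. By name, 32 rows were the 5p arm of a hairpin, 32 were the 3p arm, and 10 carried no arm.

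The 14 libraries came from 2 inbred strains, C57BL/6 and CAST/Ei, in 2 states. C57BL/6 gave 5 naive and 3 injured libraries and CAST/Ei gave 3 of each, called biological replicates in the design text. In injured mice, males aged 8 to 10 weeks, the left sciatic nerve had been crushed at the notch for 30 s; no age or sex is recorded for naive mice, so a match on either could not be checked. The sources used here do not state the time after injury, the spinal level of the ganglia, pooling of animals or batches. None of the groups is labelled as carrying a transgene or a deletion. Values are the authors' CPM, a read signal scaled by library size.

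A miRNA is cut from a hairpin, and either arm, 5p or 3p, can enter the Argonaute complex, which it guides to messenger RNAs mainly through its seed, bases 2 to 8. The miR-297, miR-466, miR-467 and miR-669 families are rodent repeats best known from a large cluster inside an intron of Sfmbt2, a Polycomb-group gene that is imprinted and expressed from the paternal allele in extraembryonic tissue. Many copies there are near-identical, so one read can belong to several rows.

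The label of an Sfmbt2 intron cluster was checked against the GENCODE M21 annotation of mouse build GRCm38; the build used by the authors is not given in the sources used here. Of 81 hairpins that carry these names, 71 lie within Sfmbt2 (chr2:10370510-10595253, plus strand), all on its strand and none touching an exon. All 71 fall in 1 intron of 62472 bases (chr2:10461473-10523944), which is intron 10 of one 23-exon transcript and intron 11 of another. They are 5 Mir297, 23 Mir466, 14 Mir467 and 29 Mir669 hairpins spread over 51617 bases, with 10 copies of Mir467a, 12 of Mir669a and 8 of Mir466b. The other 10 hairpins are dispersed over other chromosomes. The label therefore held for most members but not for all: 60 rows matched hairpins in Sfmbt2 only, 5 matched hairpins both there and elsewhere, and 9 matched hairpins elsewhere only. These 3 classes held 93.6%, 2.76% and 3.62% of the members' summed mean signal.

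RefSeq mature sequences (GRCm38.p6) were found for 8 members, all from hairpins outside Sfmbt2. They are shown for their own repeat character and because miR-466k and miR-466q differed between strains. No row matched only to Sfmbt2 had a sequence here, so the 8 need not stand for the families. The seed is in capitals.
miR-466i-3p: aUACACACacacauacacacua
miR-467f: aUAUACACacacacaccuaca
miR-467g: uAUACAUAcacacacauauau
miR-466q: gUGCACACacacacauacgu
miR-466k: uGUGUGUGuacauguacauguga
miR-466j: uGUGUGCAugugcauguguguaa
miR-467h: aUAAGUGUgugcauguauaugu
miR-669n: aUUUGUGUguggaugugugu

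miR-466i-3p lies at chr13:17747552-17747573, with its hairpin on the strand opposite to Cdk13. The miR-466k sequence lies at chr3:85467396-85467418, opposite to the predicted gene Gm37240. miR-466q lies at chr3:28419988-28420007 within Tnik, on the same strand. miR-467f lies opposite to Fxr2, miR-467g opposite to Grk4 and miR-669n opposite to Slc30a7. No annotated gene surrounds miR-466j or miR-467h.

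All 8 sequences held GUGUGU or ACACAC, which are each other's reverse complement: 4 held GUGUGU and 4 held ACACAC. Among the 910 other rows with a RefSeq sequence, 13 (1.43%) held either motif. Each of the 8 had a seed of its own. The other members had no sequence here, so shared seeds among them were not examined and members were not grouped by seed. Among those 910 other rows, only miR-668-5p had the seed of any of the 8. It shares UAAGUGU with miR-467h and had a mean of 0.572 CPM.

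The libraries held 4007706 to 15642360 reads assigned to miRNAs, recovered as whole multiples of the smallest step of each file, and the members took 0.0906% to 0.226% of them. Counting error is therefore small for the abundant members and large for one under 1 CPM. The 5 sensory and neuronal markers, among them miR-183-5p and miR-124-3p, were present in every library. C57BL/6 naive libraries 4 and 5 stood apart: their rank correlations with the other 12 were 0.871 to 0.926, against 0.925 or more among those 12, and the motor neuron miRNA miR-218-5p reached 260520 CPM in the group against 3986 CPM at its lowest. The counts of members called between strains and the members' median changes that rest on them are therefore also given without them. Marker ranges and most values of single members are given only with them. CAST/Ei naive libraries 1 and 3 stood apart in the members themselves, as described below.

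The members were of low to middle abundance. Over the 14 libraries their means ran from 0.296 to 208.5 CPM with a median of 5.63 CPM, against 6.17 CPM over all rows. Only 4 members had means over 100 CPM, 29 had 10 to 100 CPM, and 41 were under 10 CPM. Between 68 and 74 of the 74 were detected in a library. CPM is not divided by length; the 8 members with a sequence were 20 to 23 bases long.

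miR-669o-3p and miR-669a-3p led, at means of 208.5 and 206 CPM, ranks 205 and 207 of all rows. They were followed by miR-467e-5p at 152 CPM, miR-467a-5p at 141 CPM and miR-466a-3p at 53.1 CPM, and these 5 made up 49.0% of the members' sum. miR-467d-5p (52.7 CPM), miR-466e-3p (52.5 CPM), miR-467d-3p (49.0 CPM), miR-466d-3p (42.0 CPM) and miR-669c-5p (36.2 CPM) brought the share of the first 10 to 64.0%. By family, miR-669 held 42.9% of the sum, miR-467 29.4%, miR-466 22.6% and miR-297 5.10%. All 10 of the most abundant rows come from the Sfmbt2 intron.

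**Figure D1:**
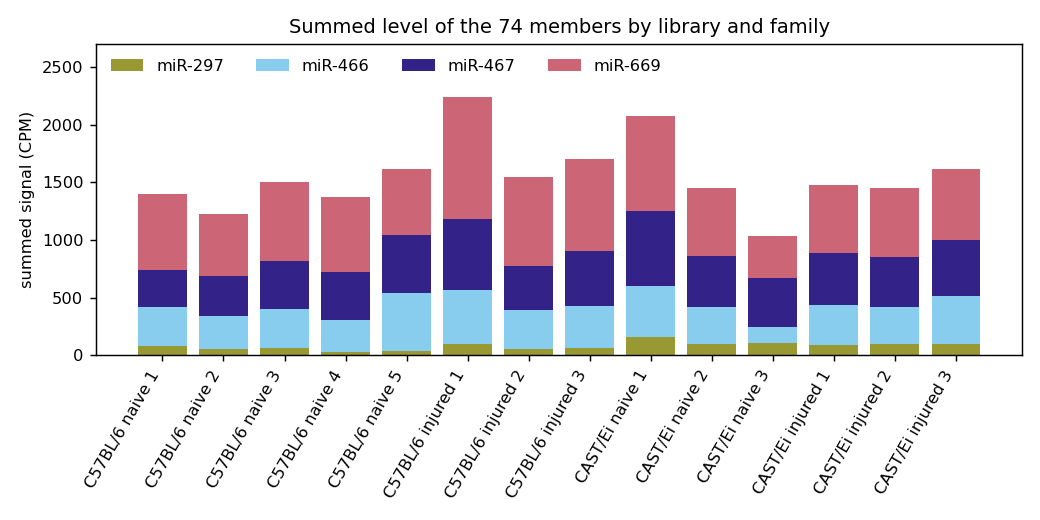
Bars give the summed signal (CPM) of the 74 members in each of the 14 libraries, stacked by family. The C57BL/6 injured libraries sit between 1548 and 2238 CPM, and the CAST/Ei naive libraries span 1036 to 2076 CPM.

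The summed signal was 1401, 1224, 1504, 1373 and 1619 CPM in C57BL/6 naive ganglia (1424 ± 148, SD, n = 5) and 2238, 1548 and 1703 CPM after injury (1830 ± 362, SD, n = 3). In CAST/Ei it was 2076, 1450 and 1036 CPM in naive ganglia (1521 ± 524, SD, n = 3) and 1480, 1449 and 1618 CPM after injury (1516 ± 90.1, SD, n = 3). The groups overlapped in both strains, and the CAST/Ei naive libraries were the most spread. In CAST/Ei naive library 3, 44 of the 47 members with enough signal to be tested lay below the mean of the group's other libraries. The median gap to that mean was -0.86 log2. In library 1, 1 of 47 lay below the mean of the group's other libraries, and the median gap was 0.75. In library 3 the 3p arms made up 39.7% of the arm-named signal, against 51.4% to 65.3% in the other 13 libraries.

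The arms behaved differently among hairpin names. In 29 names both arms had a row: the 3p arm had the higher mean in 16 and the 5p arm in 13, and 17 kept the same leading arm in all 14 libraries. miR-467a, miR-467b and miR-467e led with the 5p arm, the 3p arm holding 8.20%, 4.52% and 3.00% of the pair's mean signal. miR-466a, miR-466d and miR-466e led with the 3p arm, which held 96.4%, 94.2% and 99.0%. These 6 names were chosen after their values were seen, and all of them have hairpins in the same intron. miR-669 was mixed: the 3p arm held 91.7% in miR-669o and 86.7% in miR-669a but 13.0% in miR-669b and 10.8% in miR-669p. A row can hold reads that fit several copies, so these shares describe rows and need not be those of a single hairpin.

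Several rows were all but equal in every library. Among the 33 members with a mean of at least 10 CPM, 6 pairs of the same arm, formed by 9 rows, stayed within 1.25-fold of each other in all 14 libraries, a bound set after the values were seen. miR-669a-3p was 0.940 to 1.11 times miR-669o-3p, and miR-466a-3p was 0.903 to 1.12 times miR-466e-3p. miR-669a-5p was 0.904 to 1.13 times miR-669p-5p. The 3 rows miR-466b-3p, miR-466c-3p and miR-466p-3p, with means of 18.7, 18.7 and 18.9 CPM, kept ratios of 0.856 to 1.23. How reads that fit several copies were assigned is not given in the sources used here. Such rows are not independent, and a count of members can hold one signal several times.

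**Figure D2:**
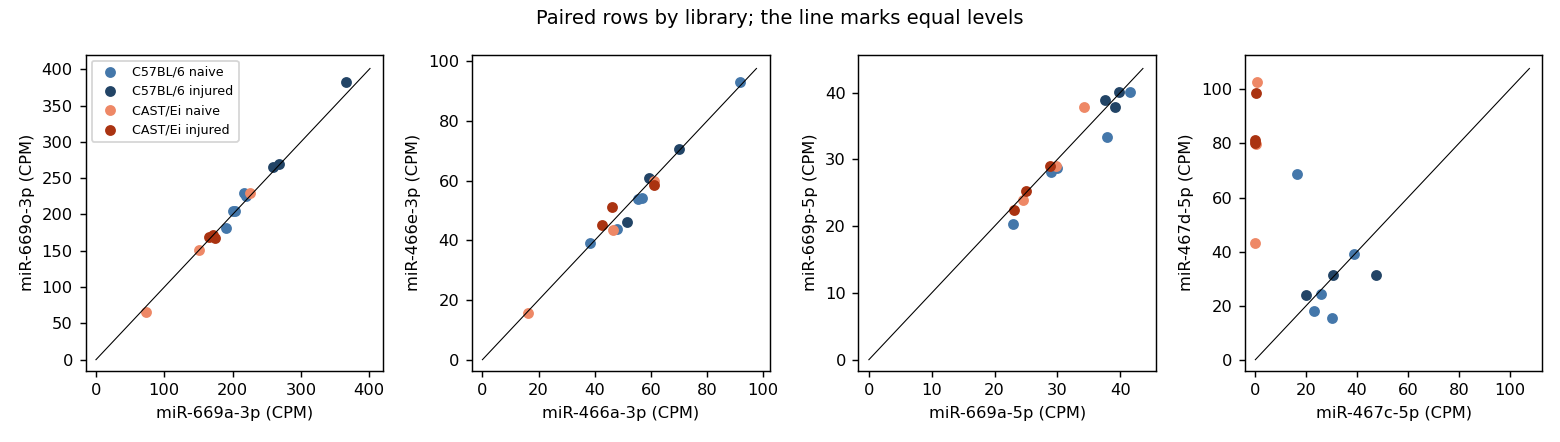
Each point is one of the 14 libraries, with the CPM of one row on the x axis and of its partner on the y axis, and the line marks equal levels. The first 3 pairs follow the line in every group. For miR-467c-5p and miR-467d-5p the CAST/Ei libraries leave it, with miR-467c-5p at 0.579 CPM or less. Some C57BL/6 libraries leave it too, such as naive library 5 with miR-467c-5p at 16.6 and miR-467d-5p at 68.9 CPM.

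The comparison of strains asked whether ganglia of CAST/Ei and C57BL/6 mice differ in these miRNAs. Each miRNA that reached 5 CPM in 3 or more libraries was tested with limma on log2(CPM + 1); 638 rows passed, of which 47 were members. The other 27 members had means of at most 3.66 CPM, and 11.1 CPM was their highest single value. Changes below are CAST/Ei minus C57BL/6 on the log2(CPM + 1) scale, which understates those of low miRNAs. In bulk ganglia, fewer cells of a type and less RNA per cell cannot be told apart. How reads were assigned to near-identical rows in either strain is also not given, and its part in the strain differences was not tested. Sequences of the CAST/Ei copies were not examined, so a strain difference below is one in the signal assigned to a row.

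In naive ganglia 9 members were higher and 2 lower in CAST/Ei at an adjusted p under 0.05, which is 23.4% of the 47 tested, against 11.1% of all 638 miRNAs (5.96% higher, 5.17% lower). The members' median change was 0.27, with 29 above 0, against 0.12 over all miRNAs. The higher ones were 3 of 5 miR-297, 2 of 9 miR-467 and 4 of 17 miR-669 rows; the lower ones were 1 of 16 miR-466 and 1 of 9 miR-467 rows. By arm, 6 of 22 5p rows were higher and 2 lower, and 3 of 22 3p rows were higher. In 8 members every CAST/Ei naive library lay above every C57BL/6 naive one and in 4 below, against 9.4% and 7.05% of all miRNAs. Without C57BL/6 naive libraries 4 and 5, 14 members passed, 29.8% against 14.2% of the 627 miRNAs then tested. The members' median change was then 0.16, with 27 of 47 above 0, against 0.12 over all miRNAs. When the naive groups alone were fitted, only miR-467c-5p and miR-669e-5p passed, and the other 9 had an adjusted p of 0.061 to 0.17. The glial markers (3 of 5 names found, none at 0) summed to 6737 to 33997 CPM in C57BL/6 naive and 34807 to 39831 CPM in CAST/Ei naive ganglia, and the endothelial markers (2 of 4 found, none at 0) to 11212 to 16081 and 18746 to 27549 CPM. Their part in the strain differences was not tested.

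In injured ganglia 4 members were lower in CAST/Ei and 0 were higher, 8.51% of the 47 against 3.29% of all miRNAs (0.784% higher, 2.51% lower). At an unadjusted p under 0.05 there were 8 members, 17% against 8.78% of all miRNAs. The injured strains did not overlap in 10 members that were higher and 13 that were lower in CAST/Ei, against 15.4% and 20.5% of all miRNAs. Markers of glia (34077 to 43006 CPM in C57BL/6 against 28781 to 30287 CPM in CAST/Ei), erythrocytes (3 of 4 found; 10580 to 13863 against 7212 to 8867 CPM), skeletal muscle (4 of 4; 8868 to 9575 against 6359 to 7393 CPM) and mural cells (1 of 2; 3639 to 4060 against 4753 to 5189 CPM) did not overlap either, none was at 0, and their part was not tested. The median change of the members was -0.05, against -0.06 over all miRNAs, and turned to 0.01 to 0.05 under 3 other scalings. Averaged over both states, 7 members were higher and 4 lower, 23.4% of the 47 against 7.99% of all miRNAs (3.61% higher, 4.39% lower). In all, 14 members passed in at least 1 of these comparisons, and 2 of them, miR-467c-5p and miR-466c-5p, passed in naive and in injured ganglia. A pass in one state only does not show that the states differ: the interaction test, given with the injury results, called 0 members.

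**Figure D3:**
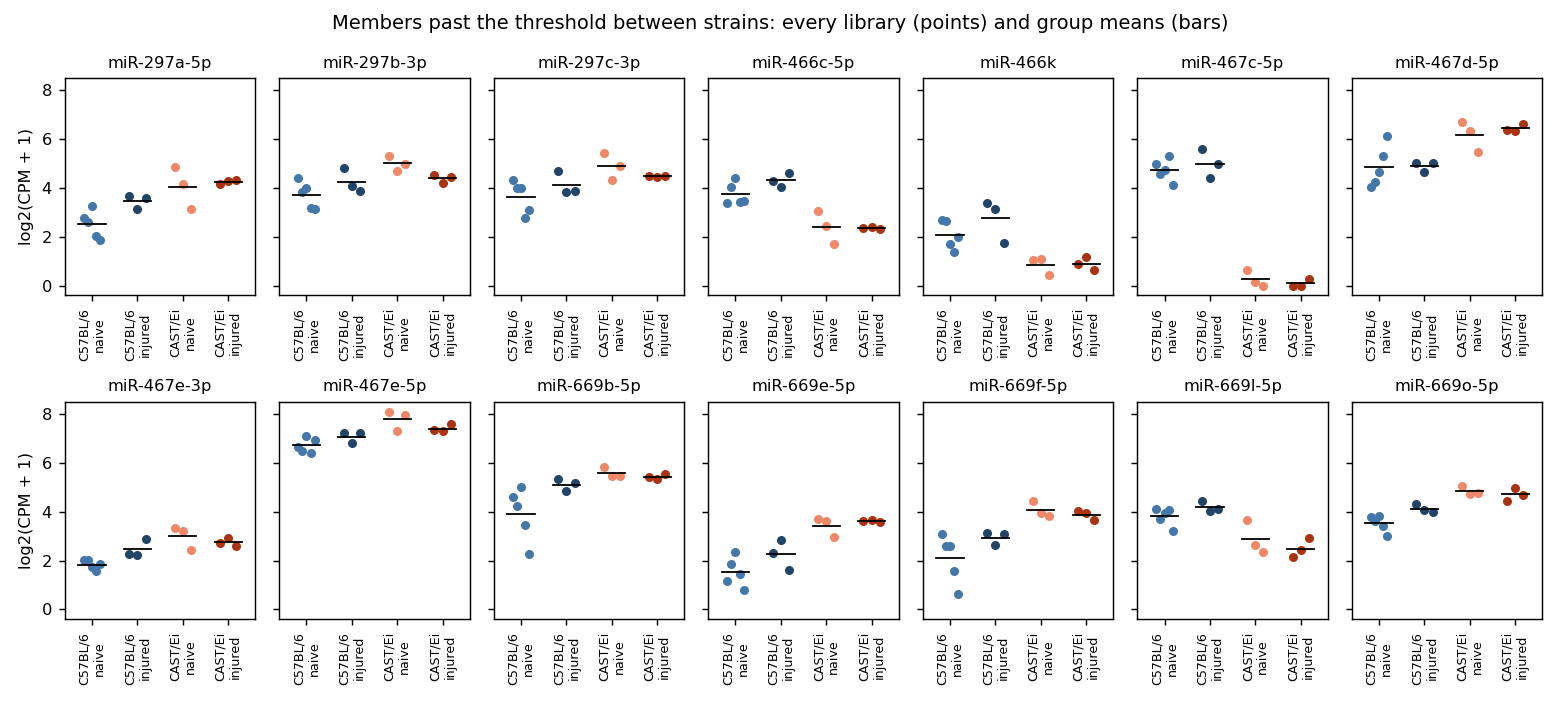
Points give log2(CPM + 1) in each library and bars the group means for the 14 members that passed between strains. miR-467c-5p is near 0 in all 6 CAST/Ei libraries, and miR-466c-5p, miR-466k and miR-669l-5p have lower means in CAST/Ei, while the other 10 have higher ones.

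The largest difference among the members was that of miR-467c-5p, the 5p arm of a hairpin at chr2:10473931-10474027 in the Sfmbt2 intron. It measured 30.3, 23.2, 25.8, 38.6 and 16.6 CPM in C57BL/6 naive and 47.4, 20.03 and 30.6 CPM in C57BL/6 injured ganglia. In CAST/Ei it measured 0.579, 0.111 and 0 CPM in naive and 0, 0 and 0.202 CPM in injured ganglia. In the signal assigned to this row, every C57BL/6 library was thus far above every CAST/Ei library. The log2 change was -4.48 ± 0.33 (SE) in naive ganglia (limma adjusted p = 2.47e-07) and -4.90 ± 0.37 in injured ganglia (limma adjusted p = 5.65e-07).

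In reads, the contrast was 1033 in the 5 C57BL/6 naive libraries against 9 in the 3 CAST/Ei naive libraries, a depth-scaled ratio of 87.3 (95% interval 45.8 to 192, counting error only). After injury it was 1007 against 3 reads, a ratio of 349 (119 to 1697, counting error only). The fitted change depended on how low values were treated: it was -2.57 in naive ganglia with a pseudocount of 5 and -8.26 in injured ganglia with edgeR on the recovered reads. The call stood under every alternative run.

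The other arm of the same hairpin did not share this pattern. miR-467c-3p, named after its values were seen, gave 5, 21, 9, 5 and 8 reads in C57BL/6 naive and 19, 14 and 24 reads in C57BL/6 injured libraries. It gave 38, 35 and 8 reads in CAST/Ei naive and 15, 7 and 27 reads in CAST/Ei injured libraries, so it was detected in all 14. The groups overlapped. Its share of the pair's signal was 1.47% to 8.33% in C57BL/6 and 82.6% to 100% in CAST/Ei. It was too low for the filter, and the difference between the arms was not tested.

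Among the 5p arms of miR-467a to miR-467e, the make-up differed between the strains while the sums overlapped. In C57BL/6 the sum was 342 ± 79.5 CPM in naive (SD, n = 5) and 403 ± 93.3 CPM in injured ganglia (SD, n = 3). The corresponding sums for CAST/Ei were 421 ± 96.9 and 383 ± 19.5 CPM (SD, n = 3 each). miR-467a-5p made up 45.3% and 44.7% of it in naive and injured C57BL/6 but 24.2% and 29.2% in CAST/Ei. miR-467d-5p made up 9.03% and 7.28% in C57BL/6 and 17.7% and 22.6% in CAST/Ei, and miR-467e-5p 32.0% and 34.2% against 54.2% and 44.2%. The share of miR-467c-5p was 8.33% and 7.87% in C57BL/6 and 0.05% and 0.02% in CAST/Ei. These shares sum to the whole, so one that is larger makes the others smaller. They are group means and were not tested. In naive ganglia the miR-467d-5p shares overlapped, at 6.22% to 15.1% in C57BL/6 and 11.7% to 22.2% in CAST/Ei. Those of miR-467a-5p, miR-467c-5p and miR-467e-5p did not. The miR-467e-5p share in CAST/Ei naive ganglia ran from 43.6% to 68.0%, with the highest in library 3.

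miR-467d-5p (hairpin chr2:10507630-10507714) measured 15.5, 18.1, 24.3, 39.2 and 68.9 CPM in C57BL/6 naive, 31.3, 23.9 and 31.4 CPM in C57BL/6 injured, 103, 79.6 and 43.3 CPM in CAST/Ei naive and 81.3, 80.0 and 98.8 CPM in CAST/Ei injured ganglia. The injured groups did not overlap, while in naive ganglia C57BL/6 library 5 exceeded CAST/Ei library 3. Averaged over states it was 1.42 ± 0.31 higher in CAST/Ei (limma adjusted p = 0.00866). Neither state alone passed (1.28 ± 0.42, adjusted p = 0.0576 in naive; 1.56 ± 0.47, adjusted p = 0.123 in injured ganglia, limma). Without C57BL/6 naive libraries 4 and 5 both passed, at 1.85 (adjusted p = 0.000852) and 1.56 (adjusted p = 0.00418). Its partner arm miR-467d-3p differed by 0.11 ± 0.25 averaged over states (limma adjusted p = 0.824).

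miR-467e-5p (hairpin chr2:10505721-10505807) measured 100, 88.8, 137, 84.5 and 121 CPM in C57BL/6 naive and 271, 156 and 253 CPM in CAST/Ei naive ganglia, which did not overlap. The injured values were 148, 111 and 148 CPM in C57BL/6 and 162, 156 and 190 CPM in CAST/Ei. In naive ganglia it was 1.07 ± 0.26 higher in CAST/Ei (limma adjusted p = 0.015) and its low partner miR-467e-3p was 1.16 ± 0.28 higher (adjusted p = 0.0175). In injured ganglia the changes of 0.33 ± 0.29 and 0.29 ± 0.32 did not pass. The miR-467e-5p call was lost without CAST/Ei naive library 1 or 3 (adjusted p = 0.0824 and 0.0678), and the miR-467e-3p call without library 1 or 2 (0.0857 and 0.0688) and in edgeR without C57BL/6 naive libraries 4 and 5 (0.0544). Averaged over states miR-467e-5p was 0.70 ± 0.19 and miR-467e-3p 0.73 ± 0.21 higher (limma adjusted p = 0.0367 and 0.0497), but neither call was stable. The first was lost in 11 of 27 alternatives: in edgeR without C57BL/6 injured 1 (0.07), and in limma without C57BL/6 naive 1 or 2, any 1 of the C57BL/6 injured or CAST/Ei injured libraries, or CAST/Ei naive 1 or 3, at an adjusted p of 0.0501 to 0.119. The second was lost in 18 of 26 alternatives, among them no filter (0.0658), a pseudocount of 0.5 (0.051), the replicate block (0.0557) and the 3 other scalings (0.0521 to 0.0697). It was lost too without C57BL/6 naive 1, 2 or 4, C57BL/6 injured 1 or 2, CAST/Ei naive 1 or 2, or any 1 of the CAST/Ei injured libraries, at an adjusted p of 0.0529 to 0.141.

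miR-467a-5p, whose 10 hairpin copies are the most for any miR-467 name, measured 88.9, 141, 145, 183 and 231 CPM in C57BL/6 naive, 238, 138 and 169 CPM in C57BL/6 injured, 135, 111 and 61.6 CPM in CAST/Ei naive and 123, 112 and 100 CPM in CAST/Ei injured ganglia. Only the injured groups did not overlap. The averaged strain change of -0.64 ± 0.25 did not pass (limma adjusted p = 0.125).

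The second member lower in both states was miR-466c-5p, with 2 hairpin copies in the intron. It measured 9.59, 15.4, 20.02, 9.76 and 10.2 CPM in C57BL/6 naive, 18.5, 15.5 and 23.4 CPM in C57BL/6 injured, 7.31, 4.45 and 2.24 CPM in CAST/Ei naive and 4.20, 4.34 and 3.98 CPM in CAST/Ei injured ganglia. The strains did not overlap in either state. The change was -1.35 ± 0.33 in naive (limma adjusted p = 0.0178) and -1.94 ± 0.37 in injured ganglia (limma adjusted p = 0.00474), and -1.65 ± 0.25 over both (adjusted p = 0.000316). The naive call was lost without CAST/Ei naive library 2 or 3 (adjusted p = 0.053 and 0.11), while the injured call stood under every alternative run. miR-466c-3p, one of the rows that moved side by side with miR-466b-3p, was not among the members that passed.

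miR-669l-5p (hairpin chr2:10468971-10469068) measured 16.2, 12.2, 14.4, 16.0 and 8.28 CPM in C57BL/6 naive, 20.7, 15.5 and 16.3 CPM in C57BL/6 injured, 11.7, 5.23 and 4.13 CPM in CAST/Ei naive and 3.38, 4.34 and 6.54 CPM in CAST/Ei injured ganglia. The injured groups were far apart, and the naive groups overlapped at a single pair of libraries. It was lower by -1.71 ± 0.37 in injured ganglia (limma adjusted p = 0.0131) and by -1.32 ± 0.25 averaged over states (adjusted p = 0.00254, and passed under every alternative run). The injured call was lost without C57BL/6 injured library 1 or CAST/Ei injured library 1 or 2 (adjusted p = 0.0794, 0.089 and 0.0593) and in edgeR without C57BL/6 injured library 1 (0.0858).

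The last of the lower members was miR-466k, whose sequence begins with a run of GU repeats and whose hairpin lies outside Sfmbt2. It measured 5.48, 5.27, 2.28, 1.61 and 3.01 CPM in C57BL/6 naive, 9.56, 7.91 and 2.37 CPM in C57BL/6 injured, 1.09, 1.11 and 0.344 CPM in CAST/Ei naive and 0.822, 1.28 and 0.539 CPM in CAST/Ei injured ganglia. The strains did not overlap in either state. In reads it was 144 against 27 in naive ganglia, a ratio of 4.06 (95% interval 2.68 to 6.37, counting error only), and 199 against 25 in injured ganglia, a ratio of 8.28 (5.45 to 13.1, counting error only). The averaged change was -1.55 ± 0.31 (limma adjusted p = 0.0033) and the injured one -1.88 ± 0.46 (adjusted p = 0.0272). With edgeR on the recovered reads the injured change was -2.89, and the limma call there was lost without any 1 of 5 libraries: C57BL/6 injured 1 or 2 (adjusted p = 0.208 and 0.148) or CAST/Ei injured 1, 2 or 3 (0.0991, 0.0593 and 0.145). It was lost too under plain CPM (0.0512), a total without the 3 most abundant miRNAs (0.0538) and in edgeR without C57BL/6 injured library 1 (0.0858).

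**Figure D4:**
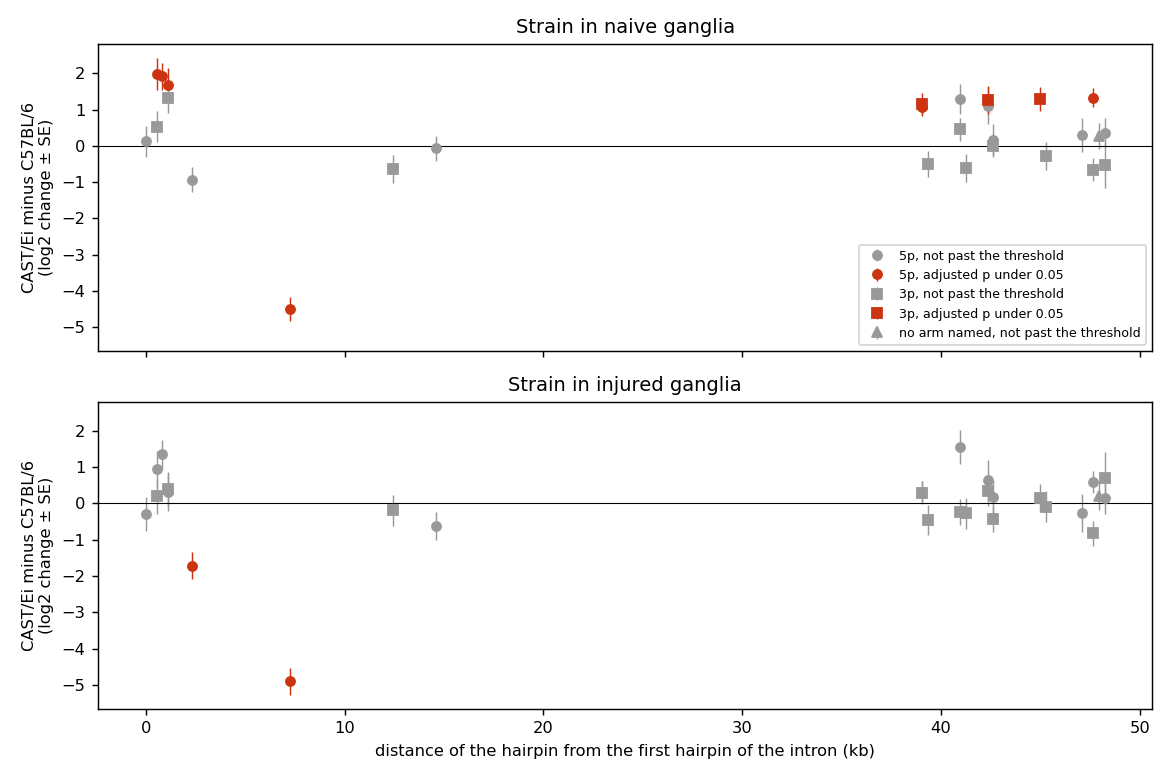
For 28 tested members that match 1 hairpin of the intron, points give the log2 change between strains ± SE against the distance in kb from the first hairpin; red points passed. miR-669f-5p, miR-669e-5p and miR-669b-5p, higher in naive CAST/Ei, lie within 1.13 kb of the first hairpin, with the lower miR-669l-5p and miR-467c-5p at 2.31 and 7.27 kb.

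Along the intron, higher and lower members lay near each other. The 28 tested members that match a single hairpin came from 20 hairpins. miR-669f-5p, miR-669e-5p and miR-669b-5p sit 0.566, 0.832 and 1.13 kb from the first hairpin, miR-669l-5p sits at 2.31 kb and miR-467c-5p at 7.27 kb. Toward the other end, miR-467e-5p and miR-467d-5p lie at 39.1 and 41.0 kb, and miR-669o-5p at 47.6 kb. The direction of the strain difference was thus not the same for all rows matched to the intron. Of the single states, miR-669f-5p, miR-669e-5p and miR-669b-5p passed in naive ganglia only and miR-669l-5p in injured ganglia only. A row can hold reads that fit several copies, so its matched hairpin need not be the source of all its reads.

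The clearest of the higher miR-669 rows was miR-669e-5p (hairpin chr2:10467495-10467613). It measured 1.23, 2.59, 4.05, 1.72 and 0.752 CPM in C57BL/6 naive, 3.98, 6.16 and 2.09 CPM in C57BL/6 injured, 12.1, 11.2 and 6.88 CPM in CAST/Ei naive and 11.2, 11.6 and 10.8 CPM in CAST/Ei injured ganglia. Every CAST/Ei library exceeded every C57BL/6 library. It was 1.91 ± 0.37 higher in naive ganglia (limma adjusted p = 0.00335) and 1.63 ± 0.27 higher over both states (adjusted p = 0.000907), and both calls stood under every alternative run. In injured ganglia alone 1.35 ± 0.41 did not pass (adjusted p = 0.124).

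Its neighbours miR-669f-5p and miR-669b-5p were higher in naive CAST/Ei ganglia too. miR-669f-5p measured 7.40, 5.10, 5.07, 1.95 and 0.564 CPM in C57BL/6 naive, 7.77, 5.13 and 7.47 CPM in C57BL/6 injured, 20.8, 14.6 and 13.1 CPM in CAST/Ei naive and 15.5, 14.5 and 11.5 CPM in CAST/Ei injured ganglia. miR-669b-5p measured 23.6, 17.9, 31.2, 10.1 and 3.76 CPM in C57BL/6 naive, 39.1, 27.8 and 34.9 CPM in C57BL/6 injured, 56.8, 42.9 and 43.0 CPM in CAST/Ei naive and 42.0, 39.4 and 45.9 CPM in CAST/Ei injured ganglia. Both were lowest in C57BL/6 naive libraries 4 and 5, and for both the CAST/Ei libraries lay above all C57BL/6 libraries of the same state.

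The naive changes were 1.98 ± 0.44 for miR-669f-5p (limma adjusted p = 0.0117) and 1.67 ± 0.47 for miR-669b-5p (adjusted p = 0.0319). Without C57BL/6 naive libraries 4 and 5 they were 1.31 (adjusted p = 0.00644) and 0.97 (adjusted p = 0.0189). The first call was lost without CAST/Ei naive library 1 (adjusted p = 0.0602). The call of miR-669b-5p was lost without C57BL/6 naive library 4 or CAST/Ei naive library 1, 2 or 3 (adjusted p = 0.0581, 0.103, 0.0708 and 0.0942) with edgeR (0.0636; 0.0812 without C57BL/6 injured library 1) and under plain CPM (0.0521). Averaged over states miR-669f-5p was 1.46 ± 0.33 higher (limma adjusted p = 0.0114), a call that was lost in edgeR without C57BL/6 injured library 1 (0.0589).

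The arms of miR-669o (hairpin chr2:10514300-10514395) pointed in opposite directions. miR-669o-5p measured 12.6, 11.3, 13.2, 9.53 and 6.96 CPM in C57BL/6 naive, 18.7, 15.7 and 14.9 CPM in C57BL/6 injured, 31.9, 25.4 and 26.5 CPM in CAST/Ei naive and 20.8, 30.7 and 24.8 CPM in CAST/Ei injured ganglia. Every CAST/Ei library exceeded every C57BL/6 library. It was 1.33 ± 0.26 higher in naive ganglia (limma adjusted p = 0.00424) and 0.96 ± 0.20 higher over both states (adjusted p = 0.00459). The naive call was lost when the naive groups alone were fitted (adjusted p = 0.061), and the averaged call stood under every alternative run.

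The abundant miR-669o-3p measured 225, 181, 230, 205 and 205 CPM in C57BL/6 naive, 382, 266 and 270 CPM in C57BL/6 injured, 229, 151 and 66.4 CPM in CAST/Ei naive and 171, 168 and 169 CPM in CAST/Ei injured ganglia. Its averaged change of -0.74 ± 0.24 did not pass (limma adjusted p = 0.066), although the injured groups did not overlap. The naive change of -0.65 ± 0.32 did not pass (limma adjusted p = 0.164). Without CAST/Ei naive library 3 it was -0.16 (limma adjusted p = 0.731). The 3p share of the pair was 95.1% ± 1.02 (SD, n = 5) and 94.8% ± 0.461 (n = 3) in naive and injured C57BL/6 and 81.6% ± 8.85 (n = 3) and 87.0% ± 2.31 (n = 3) in CAST/Ei. The arm-by-strain difference itself was not tested. The row with the equal level, miR-669a-3p, has 12 hairpin copies in the intron, so the 3p signal cannot be assigned to the miR-669o hairpin alone.

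All 5 miR-297 rows tested were above 0 in naive ganglia, and 3 passed. miR-297a-5p, from 3 hairpins in the intron and 1 elsewhere, measured 5.89, 5.10, 8.61, 3.10 and 2.63 CPM in C57BL/6 naive, 11.7, 7.91 and 11.02 CPM in C57BL/6 injured, 27.9, 16.9 and 7.74 CPM in CAST/Ei naive and 16.7, 18.8 and 19.1 CPM in CAST/Ei injured ganglia. The injured groups were apart, and in naive ganglia CAST/Ei library 3 fell within the C57BL/6 range. It was 1.54 ± 0.39 higher in naive ganglia (limma adjusted p = 0.019) and 1.16 ± 0.29 higher over both states (adjusted p = 0.0199). The naive call was lost without CAST/Ei naive library 1 or 2 (adjusted p = 0.103 and 0.0688), when the naive groups alone were fitted (0.11) and with the replicate block (1.16, adjusted p = 0.0544). The averaged one was lost without C57BL/6 injured library 2, CAST/Ei naive library 1 or 2, or CAST/Ei injured library 2 or 3, at an adjusted p of 0.0548 to 0.0683.

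miR-297b-3p measured 20.4, 13.3, 15.2, 8.04 and 7.90 CPM in C57BL/6 naive and 39.1, 25.1 and 30.9 CPM in CAST/Ei naive ganglia, which did not overlap. miR-297c-3p measured 19.3, 14.8, 14.9, 5.86 and 7.52 CPM against 42.4, 19.0 and 29.1 CPM, which overlapped. In naive ganglia they were 1.29 ± 0.33 and 1.25 ± 0.38 higher in CAST/Ei (limma adjusted p = 0.0217 and 0.0475). The call of miR-297b-3p was lost without CAST/Ei naive library 1 or 3 (adjusted p = 0.0992 and 0.0705), when the naive groups alone were fitted (0.11), and in edgeR without C57BL/6 naive libraries 4 and 5, where the change was 0.81 (0.0887). That of miR-297c-3p was lost under 20 of 28 alternatives, among them the removal of C57BL/6 naive libraries 4 and 5 (0.78, adjusted p = 0.114). It was lost too without C57BL/6 naive 4 or 5, C57BL/6 injured 2 or 3, CAST/Ei naive 1 or 3, or any 1 of the CAST/Ei injured libraries, at an adjusted p of 0.0633 to 0.159.

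Of the members too low for the filter, a limma fit on all rows called 4, named after their values were seen. miR-466q, the Tnik row, measured 1.78, 1.13, 4.81, 1.49 and 3.57 CPM in C57BL/6 naive, 4.88, 5.13 and 5.55 CPM in C57BL/6 injured, 0.869, 0.111 and 1.20 CPM in CAST/Ei naive and 0.0913, 0 and 0.741 CPM in CAST/Ei injured ganglia. The injured groups were far apart, and the naive ones overlapped. In injured ganglia 160 reads stood against 12, a ratio of 13.9 (95% interval 7.73 to 27.4, counting error only), and the change was -2.32 ± 0.39 (limma adjusted p = 0.00153). miR-466f and miR-466p-5p were 1.04 ± 0.31 and 1.38 ± 0.37 higher in naive CAST/Ei ganglia (limma adjusted p = 0.0497 and 0.0321), and miR-669a-3-3p was lower by -0.85 ± 0.20 over both states (adjusted p = 0.0123).

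The comparison of states asked whether nerve crush changed the members in each strain. In C57BL/6 0 of the 47 passed in limma, against 3.13% of all miRNAs (2.35% higher, 0.784% lower), and 6 had an unadjusted p under 0.05, 12.8% against 23.7% of all miRNAs. Their median change, injured minus naive, was 0.47 with 44 of 47 above 0, against a median of 0.12 and 367 of 638 above 0 over all miRNAs. Without C57BL/6 naive libraries 4 and 5 the median was 0.33 against 0.14, with 43 of 47 above 0. In 6 members every injured library exceeded every naive one and in 0 it lay below, against 8.62% and 6.27% of all miRNAs. One shift can be counted several times where rows share reads. In C57BL/6 injured library 1, the highest in the members' sum, 3 of 47 members lay below the mean of the group's other libraries. edgeR and DESeq2 called 0 as well.

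**Figure D5:**
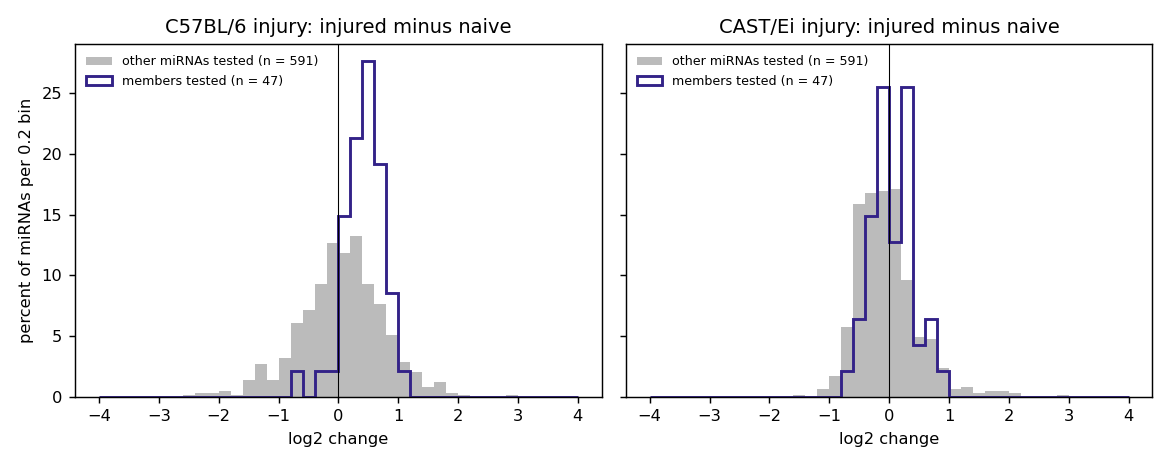
Histograms give the percent of miRNAs per bin of log2 change, injured minus naive, for 47 members (outline) and the 591 other miRNAs tested (grey). In C57BL/6 44 of 47 members lie above 0; in CAST/Ei it is 24 of 47, and 6 of 47 without CAST/Ei naive library 3.

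The members with the lowest p in C57BL/6 were miR-467a-3p, miR-669b-5p and miR-297a-5p. miR-467a-3p measured 14.0, 9.80, 8.11, 6.43 and 4.89 CPM in naive and 21.2, 15.0 and 13.5 CPM in injured ganglia, which overlapped. The changes were 0.91 ± 0.34, 1.20 ± 0.47 and 0.96 ± 0.39 (limma adjusted p = 0.133, 0.142 and 0.156). For miR-669b-5p the injured libraries lay at 39.1, 27.8 and 34.9 CPM and the naive ones at 3.76 to 31.2 CPM; leaving out C57BL/6 naive library 3 made it pass (adjusted p = 0.0433), and leaving out libraries 4 and 5 lowered the change to 0.49 (adjusted p = 0.292). The abundant miR-669o-3p and miR-669a-3p did not overlap between states, but their changes of 0.53 ± 0.32 and 0.52 ± 0.29 did not pass (limma adjusted p = 0.333 and 0.312).

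In CAST/Ei 0 of 47 passed in limma, as in edgeR and DESeq2, against 1.1% of all miRNAs, and 1 had an unadjusted p under 0.05, 2.13% against 6.43% of all miRNAs. The members' median change was 0.04 with 24 above 0, against -0.09 over all miRNAs; plain CPM raised both, to 0.20 and 0.16. These values rested on single libraries: without CAST/Ei naive library 3 the members' median was -0.22 with 6 of 47 above 0 (all miRNAs -0.15), and without library 1 it was 0.30 with 31 above 0 (all miRNAs -0.05). Of the 16 miR-466 rows, 15 were above 0 with all libraries and 5 without library 3, against 42.8% and 35.0% of all miRNAs. miR-466i-5p, from a hairpin outside Sfmbt2, measured 7.97, 9.12 and 3.44 CPM in naive and 8.95, 14.9 and 16.8 CPM in injured ganglia, which overlapped, and its change of 0.94 ± 0.36 did not pass (limma adjusted p = 0.489). miR-297b-3p (-0.60 ± 0.37) and miR-467h (-0.42 ± 0.30), next by p, did not pass either (adjusted p = 0.746 and 0.793).

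The sensory and neuronal markers (5 of 5 found, none at 0) summed to 127937 to 161052 CPM in naive and 99982 to 105724 CPM in injured C57BL/6 ganglia, and to 120554 to 136550 and 95969 to 104135 CPM in CAST/Ei. In C57BL/6 the glial markers, at 6737 to 33997 CPM in naive and 34077 to 43006 CPM in injured ganglia, and the endothelial markers, at 11212 to 16081 and 18408 to 20895 CPM, were apart in the upward direction, that of the members' median. In CAST/Ei markers of glia (34807 to 39831 against 28781 to 30287 CPM), erythrocytes (9088 to 12815 against 7212 to 8867 CPM), skeletal muscle (8788 to 11363 against 6359 to 7393 CPM) and epithelium (6 of 6 found; 124 to 163 against 63.3 to 76.7 CPM) were lower in injured ganglia without overlap. None of these was at 0, and their part in the members' changes with injury was not tested.

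The difference between the injury changes of the strains was tested as an interaction. In limma 0 of 47 members and 0% of all miRNAs passed, edgeR and DESeq2 called 0 members too, and 2 members had an unadjusted p under 0.05, 4.26% against 8.15% of all miRNAs. The lowest p belonged to miR-297b-3p (-1.14 ± 0.50), miR-466i-5p (1.07 ± 0.48) and miR-467e-3p (-0.87 ± 0.43), each with an adjusted p of 0.529. The median difference was -0.48 with 36 of 47 below 0, against -0.20 and 383 of 638 below 0 over all miRNAs. Without C57BL/6 naive libraries 4 and 5 the median difference was -0.37 against -0.22, with 13 of 47 members above 0. Without CAST/Ei naive library 3 it was -0.73 against -0.24, and without library 1 it was -0.27 against -0.16. The number of miR-466 rows below 0 was 7 of 16 with all libraries and 14 of 16 without library 3. Averaged over strains, 0 of 47 passed in limma, edgeR or DESeq2, against 4.23% of all miRNAs, with 1 at an unadjusted p under 0.05, 2.13% against 15.8% of all miRNAs. By p, miR-467a-3p (0.56 ± 0.26), miR-297a-5p (0.59 ± 0.29) and miR-669a-3p (0.42 ± 0.22) came first (limma adjusted p = 0.303, 0.349 and 0.391).

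The wide intervals limit what these counts show. For miR-669o-3p the injury change in C57BL/6 had a 95% interval of -0.14 to 1.20, and for miR-467e-5p in CAST/Ei it was -0.99 to 0.23, so changes of these sizes could not be told from 0 with 3 to 5 libraries a group.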

How the data were processed

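Each library's file gave 1 value per miRNA. Per the submitters' processing notes reads were aligned with Bowtie2; the sources used here name no version, genome build, miRNA release or treatment of multiply aligned reads. The deposited signal was CPM on scaled library sizes: library totals were 867581 to 1311857, and the values were whole multiples of 1 step per library (100% within 1e-06), which gave the reads per library. In C57BL/6 injured library 1 this step is nearly a round decimal, which makes its reads less certain. Because totals differ between libraries, the values were handled as a signal rather than as the plain CPM planned, with the same test. Replicates had no identical files.

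limma 3.58.1 (R 4.3.3) was fitted to log2(CPM + 1) over all 14 libraries with 4 group means, on rows reaching 5 CPM in 3 or more libraries, with two-sided tests and Benjamini-Hochberg adjustment over 638 rows at 0.05. Alternatives were pseudocounts of 0.5 and 5, no filter, at least 20 CPM, only the groups compared, a replicate block, edgeR 4.0.16 and DESeq2 1.42.0 on recovered reads, 3 scalings, and each library left out. P-values measure the spread between these libraries. Scripts were tested on simulated data. Hairpins were matched by name to GENCODE M21. Named were members that passed, the 10 most abundant, the 3 lowest by p where none passed, rows sharing a seed, and the 3 rows most like the sum. Members and lists were chosen with earlier results of these data known.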

Additional observations from a re-analysis of the deposited data

Results flagged for a closer look

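In C57BL/6 naive ganglia the highest library of miR-466e-3p lay far from the other 4: library 5 measured 92.9 CPM and the others 39.1 to 54.3 CPM. This was the only one of 26 groups of values tested in which a library lay past the limit, and chance alone gives about 1 in 20. The side-by-side row miR-466a-3p measured 91.8 CPM in the same library, which is one of the 2 that stood apart over all miRNAs.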

How the results depend on the processing

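None of the 26 strain calls changed direction under any alternative. Over all 7 comparisons, 55 of the 175 values of the 25 named members, none of them a call, took the other sign in at least 1 alternative. The count of members called between strains moved with the settings. For naive ganglia (11 as reported) it was 5 with at least 20 CPM required, 2 when only the groups compared were fitted, and 5 to 15 when 1 library at a time was left out, with 5, 7 and 6 without CAST/Ei naive library 1, 2 and 3. For injured ganglia (4 as reported) it was 1 with at least 20 CPM, 14 with only the groups compared, 2 to 5 when 1 library was left out (2 without C57BL/6 injured library 1 or CAST/Ei injured library 1 or 2), and 2 with edgeR without C57BL/6 injured library 1, an alternative added after seeing the data. Averaged over states (11 as reported) it was 4 with at least 20 CPM and 8 to 13 when 1 library was left out. With the stricter minimum fewer members were tested; the cause of the other moves was not tested. For injury in C57BL/6 the count was 0 to 1 when 1 library was left out, the 1 being miR-669b-5p without C57BL/6 naive library 3. The counts for injury in CAST/Ei, for injury averaged over strains and for the difference between the strains stayed at 0 in every alternative run. Without C57BL/6 naive libraries 4 and 5 the strain counts were 14, 5 and 15. These were 29.8%, 10.6% and 31.9% of the 47, against 14.2%, 5.1% and 15.5% of the 627 miRNAs then tested. edgeR gave 10, 4 and 11 and DESeq2 14, 5 and 14. For the other alternatives the shares over all miRNAs are not given here. Whether all miRNAs moved with the members cannot be read from those counts.

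The labels give the groups the same replicate numbers. Over 18 pairs of same-numbered libraries the correlation of deviations from the group means ran from -0.19 to 0.56, with 10 over 0.1, so the numbers were not taken as pairs; for the naive groups of both strains the 3 correlations were 0.10 to 0.11. With the replicate block the strain counts were 13, 5 and 16 and the injury counts 0; numbers 4 and 5 occur in C57BL/6 naive only, so the block takes those libraries out of the comparisons. Scaling moved the median of all miRNAs by at most 0.25 log2 (injury in CAST/Ei, plain CPM).

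Depth limits the low members: 3 reads equal 0.202 to 0.760 CPM depending on the library, and 27 members were too low to be tested. On simulated data with 200 changed miRNAs among 638, the test found 39% of changes of 1 log2 and 88% of 2 log2 for injury in C57BL/6, and 31% and 85% for strain in injured ganglia. In the data 3.13% and 3.29% of all miRNAs passed in these comparisons. The simulation drew each row on its own, without shared reads or libraries that stand apart, so its percentages need not hold for the members.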

Other observations

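Outside the named families, the row whose log2(CPM + 1) followed the members' summed signal most closely over the 14 libraries was miR-1187 (Pearson r = 0.838, mean 5.59 CPM). Its RefSeq sequence (chr5:82798964-82798986, minus strand, GRCm38.p6), with the seed in capitals, is shown because it too holds GUGUGU.
miR-1187: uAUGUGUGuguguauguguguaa

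Next came miR-493-5p (r = 0.708, mean 242 CPM) and miR-101b-3p (r = 0.652, mean 1771 CPM). These correlations are descriptions: the libraries differ in strain, state and composition, and the 3 rows were picked as the highest of all non-members.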
